A study of Mus musculus with 19 samples.

Results

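Intercalated disc and gap junction genes are the genes for the proteins that join heart muscle cells to each other. The 10 genes described here were taken by symbol: Dsp, Pkp2, Jup, Dsg2, Dsc2, Cdh2, Ctnna3, Gja1, Gja5 and Gjc1. All 10 were found among the 24421 gene rows of the 'HEART' table and passed the filter on low counts that left 12694 genes for testing. All 10 were also found among the 23881 loci with 1 symbol in the 'SHF' table.

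RNA came from single mouse embryos at E9.5. The cKO embryos were Mesp1-Cre; Chd7 fl/fl and the control embryos carried Mesp1-Cre, so Cre was present in both genotypes. Mesp1-Cre deletes in the early mesoderm that gives rise to the heart and much of the pharyngeal mesoderm, and cells of other lineages in a dissection keep Chd7, which encodes a chromatin remodeller. 'HEART' (outflow tract with the heart tube, poly(A)-selected mRNA) had 4 cKO and 4 control samples. 'SHF' (distal pharyngeal apparatus, ribosomal RNA-depleted total RNA) had 6 cKO and 5 control samples, for which 1 value per genotype was deposited, so the depth and spread of its samples are unknown. The comparison asked what loss of Chd7 from this lineage does to expression.

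The 'HEART' libraries held 8640839 to 15030099 counts each. Chd7 had 35.8, 43.5, 42.7 and 20.36 CPM (counts scaled to library size) in the cKO samples 1 to 4, against 230, 224, 231 and 242 CPM in the control samples 1 to 4, so each library matched its label. In 'SHF' Chd7 had 18.9 FPKM in cKO and 28.2 FPKM in control, a log2 ratio of -0.58, against a log2 fold change of -2.71 in 'HEART'. All 9 cardiomyocyte markers were tested in 'HEART' and none was called by edgeR, DESeq2 or limma-voom (1 lower at an unadjusted p under 0.05), with summed levels of 41035 to 45202 CPM in cKO and 42145 to 47573 CPM in control. Some libraries differed in ways that the genotype label does not name. Xist, the RNA made from the inactive X chromosome of female cells, had 85.3, 62.0, 61.2 and 34.3 CPM in the cKO samples, against 63.1, 1.30, 0.162 and 0.497 CPM in the control samples, and embryo sex is not among the labels. Among the controls only control 1 had Xist at the cKO level. Xist and genotype thus largely ran together, and their effects cannot be fully told apart. Summed epithelial markers had 504 to 571 CPM in cKO and 252 to 522 CPM in control, and summed erythroid genes had 1251 to 5851 CPM in cKO and 4418 to 13035 CPM in control. Most of the epithelial sum came from the keratins Krt8, Krt18 and Krt19, with means of 193, 119 and 225 CPM in cKO and 126, 81.7 and 99.6 CPM in control. Across all genes tested with edgeR's quasi-likelihood test (Benjamini-Hochberg adjusted p of 0.1 or less), 446 genes were higher and 371 lower in cKO, and 48.5% of all fold changes were above 0. An unadjusted p under 0.05 was found for 2105 of the 12694 genes tested, while DESeq2 called 982 genes and limma-voom 823.

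The intercalated disc holds 3 kinds of contact that are still being assembled along the cell borders of the embryonic heart tube. Desmosomes couple intermediate filaments of neighbouring cells through desmosomal cadherins (Dsg2, Dsc2) and a plaque of plakoglobin (Jup), plakophilin (Pkp2) and desmoplakin (Dsp). Adherens junctions couple actin through N-cadherin (Cdh2) and alpha-catenins, of which alphaT-catenin (Ctnna3) is the form best known from heart muscle and also binds plakophilin 2. Gap junctions are channels of connexins that carry current from cell to cell. Connexin 43 (Gja1) is the main connexin of working ventricle, connexin 40 (Gja5) that of atrium and fast conduction tissue, and connexin 45 (Gjc1) is needed for conduction in the earliest beating heart.

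The promoters of the members with the largest differences in each direction (Dsp and Gja1) are shown here, with that of Gja5, the connexin gene whose ratio to Gja1 within a sample did not overlap between the genotypes. Each is the 250 bases before the RefSeq transcript start on GRCm38.p6, written 5′ to 3′ on the gene's strand. Capitals mark a match to 1 of 3 short motifs, each searched on both strands. The T-box motif was spelled TCACACC. The NK2 motif was spelled TCAAGTG. The GATA motif was spelled AGATAA. The motifs do not overlap each other in the windows printed.
Dsp, chr13:38151044-38151293, + strand: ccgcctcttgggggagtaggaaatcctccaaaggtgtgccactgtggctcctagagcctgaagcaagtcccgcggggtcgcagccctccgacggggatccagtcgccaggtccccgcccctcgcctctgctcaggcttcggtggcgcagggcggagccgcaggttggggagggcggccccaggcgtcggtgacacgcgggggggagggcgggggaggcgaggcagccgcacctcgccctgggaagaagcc
Gja1, chr10:56377050-56377299, + strand: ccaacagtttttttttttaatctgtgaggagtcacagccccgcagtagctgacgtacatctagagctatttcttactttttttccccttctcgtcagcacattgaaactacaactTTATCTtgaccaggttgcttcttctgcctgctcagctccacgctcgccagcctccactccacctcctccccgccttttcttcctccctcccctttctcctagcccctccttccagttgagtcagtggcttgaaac
Gja5, chr3:97032152-97032401, + strand: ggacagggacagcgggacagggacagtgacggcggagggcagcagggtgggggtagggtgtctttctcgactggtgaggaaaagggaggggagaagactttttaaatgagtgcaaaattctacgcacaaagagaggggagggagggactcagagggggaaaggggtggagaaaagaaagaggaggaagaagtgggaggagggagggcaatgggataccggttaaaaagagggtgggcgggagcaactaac
The Dsp window was 72.4% G or C with 22 CpG and held no match. The Gja1 window was 50.0% G or C with 6 CpG and held 1 GATA match, on the other strand, at 135 to 130 bases before the start. The Gja5 window was 56.4% G or C with 7 CpG and held no match. It precedes a RefSeq start inside the GENCODE span of Gja5, which begins upstream at 96904693, so it is not the window at the 5′ end of that span. Over 32851 mouse promoters of the same table the median was 52.4% G or C, and 3.33% held the T-box letters, 2.68% the NK2 letters and 9.99% the GATA letters. Promoter windows were examined for 5 of the 10 members. The other members are not shown to lack a RefSeq promoter entry.

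In 'HEART' 1 of the 10 members passed the test, where 6.44% of all genes did. This was Dsp, which rose 1.27-fold in cKO. The other 9 members were not called (3 lower at an unadjusted p under 0.05, 1 lower with DESeq2), with differences of -0.41 to 0.23 on the log2 scale. Over all genes 2105 of 12694 had such an unadjusted p, and DESeq2 called 982 of 14704. Of the 10 fold changes 5 were above 0 and 5 below, with a median of 0.01, against -0.01 for all genes tested. No member's cKO samples lay wholly apart from its control samples, where 10.2% of all genes tested did so. The members summed to 2461 to 2959 CPM in cKO and 2199 to 2798 CPM in control.

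**Figure D1:**
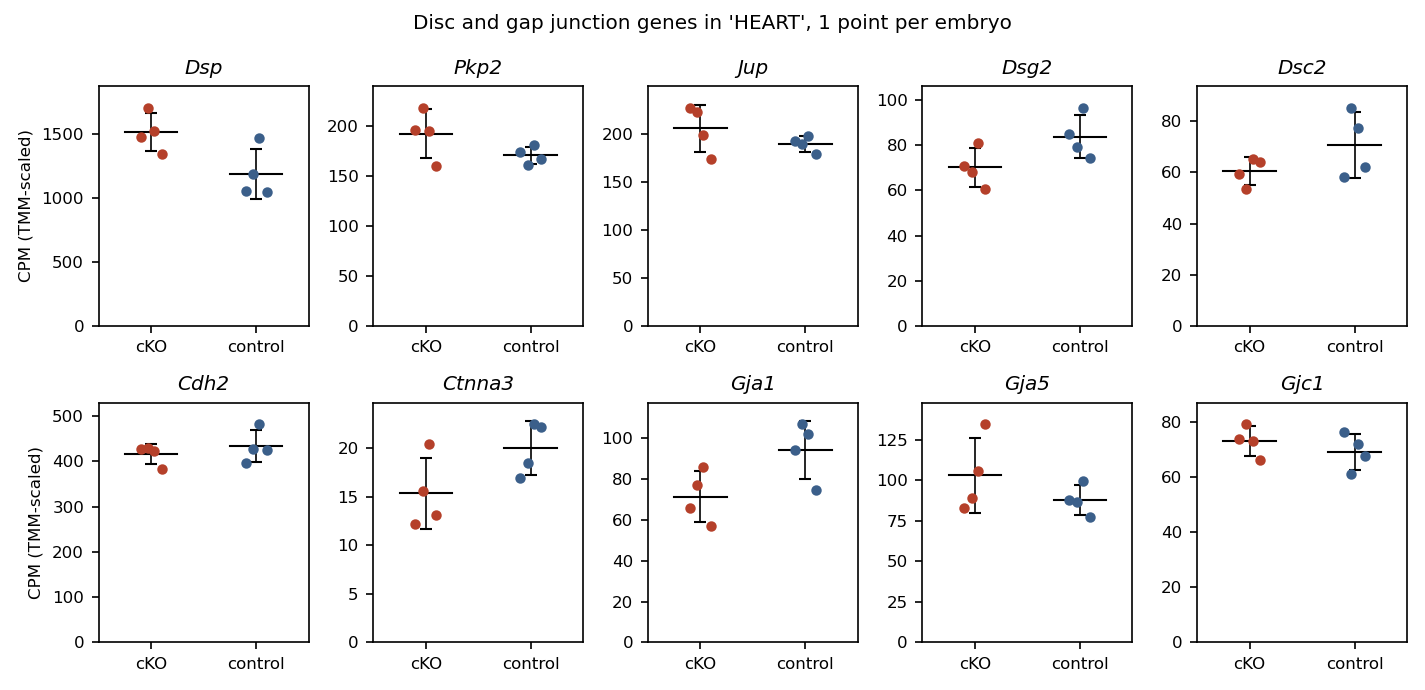
CPM (TMM-scaled) of each member in 'HEART', with 1 point per embryo, cKO left of control, a horizontal line for the mean and a bar for 1 SD (n = 4 each). The axes start at 0. Dsp lies highest, at 1348 to 1705 CPM in cKO and 1049 to 1467 CPM in control, and in every panel the points of the genotypes overlap.

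Desmoplakin (Dsp, chromosome 13, 38151294 to 38198577, + strand in GENCODE M21 on mm10) ties the desmosomal plaque to desmin filaments in muscle and to keratins in epithelium. Dsp had 1475, 1705, 1528 and 1348 CPM in the cKO samples 1 to 4, against 1053, 1185, 1467 and 1049 CPM in the control samples 1 to 4. Of the cKO samples 3 lay above every control sample, and cKO 4 lay below control 3. The means were 1514 ± 148 CPM in cKO and 1188 ± 196 CPM in control (SD, n = 4 each). The log2 fold change was 0.35 ± 0.11 (SE), with an edgeR adjusted p of 0.0968 and a 95% interval of the fold of 1.09 to 1.49. The call lay just inside the threshold of 0.1. It held without cKO 4 or control 3 and was lost without cKO 1 (adjusted p = 0.185), cKO 2 (0.284), cKO 3 (0.186), control 1 (0.269), control 2 (0.176) or control 4 (0.193), with RLE size factors (0.103), with total counts as library size (0.118) and with log2 Xist as a covariate (0.203), with log2 fold changes of 0.29 to 0.51 in these fits.

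Epithelial markers moved with Dsp in part. Of 11 such markers 7 were tested, with 4 fold changes above 0 and 3 below (3 higher and 1 lower at an unadjusted p under 0.05, 1 higher and 1 lower with DESeq2, 2 higher with limma-voom). Such an unadjusted p was found for 2105 of all 12694 genes tested. Krt19, a keratin of simple epithelia, was called by edgeR, with 219, 249, 202 and 230 CPM in the cKO samples against 83.9, 83.4, 87.5 and 144 CPM in the control samples. Krt8 had 205, 194, 185 and 187 CPM in cKO and 99.3, 97.1, 101 and 208 CPM in control, so that control 4 was at the level of the cKO samples while its Dsp was the lowest of all. Krt7 went the other way and was not called, at 0.410 to 2.22 CPM in cKO and 1.86 to 6.27 CPM in control (log2 fold change -1.58 ± 0.51, edgeR adjusted p = 0.120). The defining epithelial genes were near 0: Epcam had 0 to 5.10 CPM in cKO and 0.388 to 2.48 CPM in control, and Cdh1 had 0.0768 to 2.98 CPM in cKO and 0.259 to 9.66 CPM in control. The part of these markers in the Dsp result was not tested. In bulk samples, fewer cells of a type and less RNA per cell cannot be told apart.

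The other plaque genes lay slightly above 0 and were not called. Plakophilin 2 (Pkp2, chromosome 16, 16213318 to 16272712, + strand), which links desmoplakin to the cadherins, had 196, 218, 195 and 160 CPM in cKO, against 174, 161, 181 and 167 CPM in control. Its cKO samples 1 to 3 were above every control sample and cKO 4 was below all of them, with a log2 fold change of 0.17 ± 0.09 (edgeR adjusted p = 0.360, 95% interval of the fold 0.987 to 1.29). Plakoglobin (Jup, chromosome 11, 100368958 to 100397763, - strand), a catenin shared by desmosomes and adherens junctions, had 227, 223, 199 and 173 CPM in cKO, against 193, 190, 198 and 179 CPM in control. Its log2 fold change was 0.12 ± 0.08 (edgeR adjusted p = 0.547, 95% interval of the fold 0.955 to 1.23). For Jup too cKO 4 was the lowest sample of all, and without it both genes were called, Pkp2 at 0.26 (adjusted p = 0.0354) and Jup at 0.20 (adjusted p = 0.0937). Each was called in only this 1 of 19 alternative fits. Calls over all genes also rose in that fit, to 1421 of 12813 genes against 817 of 12694 in the main fit. Of those calls 61.4% were higher, against 54.6% in the main fit.

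The desmosomal cadherins lay below 0 and were not called. Desmoglein 2 (Dsg2, chromosome 18, 20558074 to 20604521, + strand), the main desmoglein of heart muscle, had 71.0, 68.0, 81.0 and 60.5 CPM in cKO, against 85.0, 79.0, 96.5 and 74.3 CPM in control. Only cKO 3 lay above any control sample. The log2 fold change was -0.26 ± 0.10 (edgeR adjusted p = 0.206), with a 95% interval of the fold of 0.718 to 0.972 before any adjustment over genes. Desmocollin 2 (Dsc2, chromosome 18, 20030633 to 20059554, - strand), its partner cadherin, had 59.5, 53.4, 65.3 and 64.1 CPM in cKO, against 58.1, 85.2, 77.5 and 62.0 CPM in control. Control 2 and control 3 were high and control 1 and control 4 were at the cKO level, with a log2 fold change of -0.22 ± 0.12 (edgeR adjusted p = 0.377, 95% interval of the fold 0.719 to 1.02).

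Of the adherens junction members, N-cadherin (Cdh2, chromosome 18, 16588877 to 16809246, - strand) showed the smallest difference of the 10 genes. Cdh2 had 428, 431, 422 and 384 CPM in cKO, against 397, 428, 482 and 426 CPM in control, with a log2 fold change of -0.06 ± 0.07 (edgeR adjusted p = 0.755, 95% interval of the fold 0.863 to 1.07). AlphaT-catenin (Ctnna3, chromosome 10, 63430098 to 65003667, + strand) was the lowest member, with 12.2, 15.6, 20.5 and 13.1 CPM in cKO, against 16.9, 18.5, 22.5 and 22.2 CPM in control. These values rest on 156 to 278 counts per library. The cKO samples 1, 2 and 4 lay below every control sample and cKO 3 lay among the controls. The log2 fold change was -0.40 ± 0.16 (edgeR adjusted p = 0.215, 95% interval of the fold 0.601 to 0.962), and without cKO 3 it was -0.55 (adjusted p = 0.0541).

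**Figure D2:**
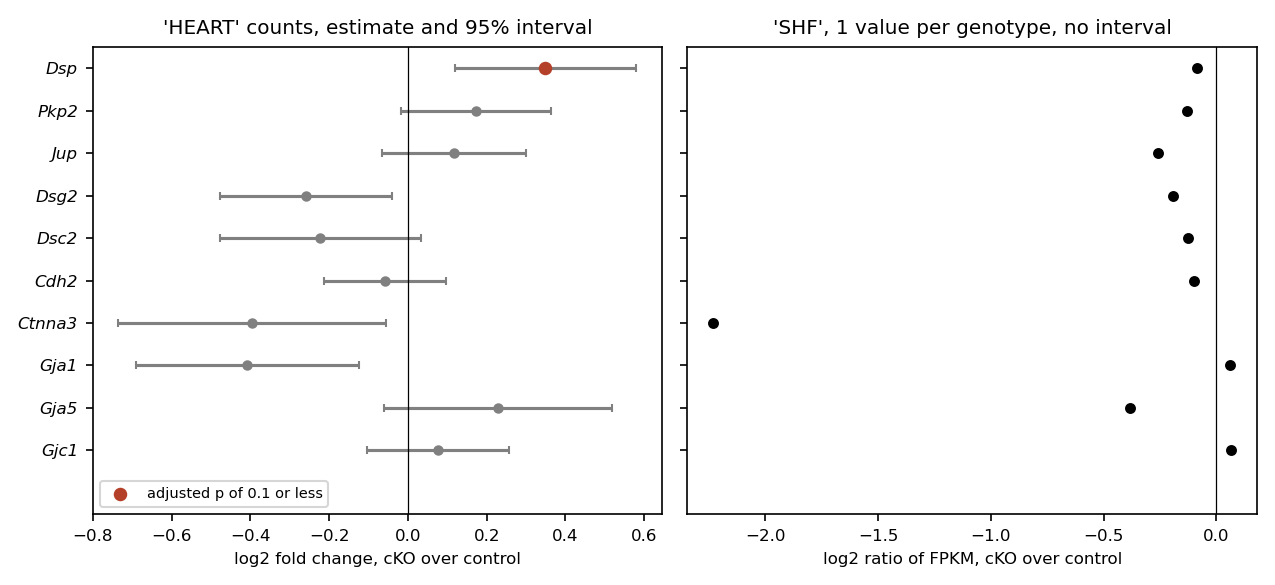
Log2 fold change of each member, cKO over control. On the left, 'HEART' estimates from edgeR with their 95% intervals (n = 4 each), where Dsp, in red, is the only member past the threshold and lies at 0.35. On the right, 'SHF' ratios of 1 FPKM value per genotype, with no interval, which lie between -0.38 and 0.07 apart from Ctnna3 at -2.23. The axes differ in range.

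None of the connexins was called. Connexin 43 (Gja1, chromosome 10, 56377330 to 56402513, + strand) had 65.7, 77.2, 85.8 and 57.2 CPM in cKO, against 94.3, 107, 102 and 74.8 CPM in control. Of the cKO samples 1 and 4 lay below every control sample, and cKO 2 and cKO 3 lay above control 4 only. The means were 71.5 ± 12.6 CPM in cKO and 94.6 ± 14.2 CPM in control (SD, n = 4 each). The log2 fold change was -0.41 ± 0.13, the lowest of the 10 members, and it missed the threshold with an edgeR adjusted p of 0.118 (95% interval of the fold 0.620 to 0.917). It passed with DESeq2 (adjusted p = 0.0705), with total counts as library size (0.0782), with no filter on low counts (0.0822), without cKO 3 (0.0725), without control 4 (0.0319) and with the embryo code prefix as a block in limma-voom (0.0816), so that the call turned on these choices. Of the 8 fits that left out 1 sample only 2 called it, with edgeR adjusted p up to 0.281. Over all alternative fits its adjusted p reached 0.418.

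Connexin 40 (Gja5, chromosome 3, 96904693 to 97077416, + strand) had 83.0, 89.1, 106 and 134 CPM in cKO, against 87.8, 86.8, 99.6 and 77.4 CPM in control. The cKO samples 3 and 4 lay above every control sample, and cKO 1 and cKO 2 were at the control level. Its log2 fold change was 0.23 ± 0.13 (edgeR adjusted p = 0.428, 95% interval of the fold 0.960 to 1.43). Gja5 was the member for which cKO 4 was the highest cKO sample. Connexin 45 (Gjc1, chromosome 11, 102799579 to 102819700, - strand) had 73.9, 79.3, 73.4 and 66.4 CPM in cKO, against 76.4, 61.1, 72.2 and 67.9 CPM in control. The genotypes overlapped almost throughout, with a log2 fold change of 0.08 ± 0.08 (edgeR adjusted p = 0.721, 95% interval of the fold 0.930 to 1.20).

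Some samples were often the highest or lowest of their genotype across members. The same share over all genes was not computed, so this order is not shown to be particular to the members. Sample cKO 4 was the lowest cKO sample for 7 of the 10 members, control 3 the highest control sample for 7 and control 4 the lowest control sample for 5. Ratios of members within a sample, which do not depend on library scaling, were set side by side after the values above had been seen. The ratios are a description and carry no test.

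Of the 45 ratios between 2 members, 10 did not overlap between the genotypes, where 11.7% of all pairs of genes tested did not, and the 45 share genes with each other. In 8 of the 10 a plaque gene (Dsp, Pkp2 or Jup) was relatively higher in cKO than another member. By the order of the list, a plaque gene was the numerator of every pair with another member. These ratios restate the fold changes given above. Dsp over Dsg2 was 20.8, 25.1, 18.9 and 22.3 in cKO, against 12.4, 15.0, 15.2 and 14.1 in control. Dsp over Cdh2 was 3.45, 3.96, 3.62 and 3.51 in cKO, against 2.65, 2.77, 3.04 and 2.46 in control. Dsp over Gja1 was 22.45, 22.1, 17.8 and 23.6 in cKO, against 11.2, 11.1, 14.3 and 14.0 in control. In each of these the lowest cKO sample stood above the highest control sample. The other plaque ratios of this kind were Dsp over Dsc2 and Ctnna3, Pkp2 over Dsg2 and Gja1, and Jup over Dsg2.

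The remaining pairs set Gja5 against Gja1 and Dsg2. Gja1 over Gja5 was 0.792, 0.867, 0.813 and 0.425 in cKO, against 1.07, 1.23, 1.03 and 0.966 in control. Gja1 thus had more counts than Gja5 in the control samples 1 to 3 and slightly fewer in control 4 (906 against 938). In every cKO heart Gja1 had fewer counts than Gja5. Counts do not allow for the length of a gene. Dsg2 over Gja5 was 0.855, 0.763, 0.767 and 0.450 in cKO, against 0.968, 0.910, 0.969 and 0.959 in control. Within the plaque, Pkp2 over Jup overlapped, at 0.864 to 0.980 in cKO and 0.845 to 0.935 in control. Gja5 over Gjc1 overlapped as well, with cKO 4 high at 2.03 against 1.12 to 1.44 in the other cKO samples and 1.14 to 1.42 in control.

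**Figure D3:**
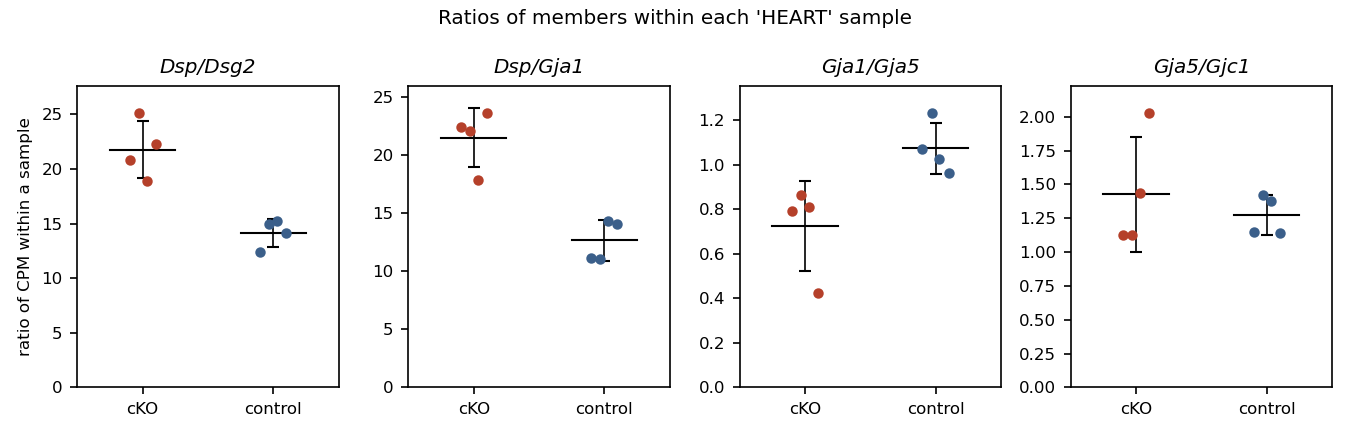
Ratio of CPM of 2 members within each 'HEART' sample, with 1 point per embryo, cKO left of control, a horizontal line for the mean and a bar for 1 SD (n = 4 each). Dsp over Dsg2 (18.9 to 25.1 in cKO, 12.4 to 15.2 in control) and Dsp over Gja1 (17.8 to 23.6 in cKO, 11.1 to 14.3 in control) lie higher in cKO, Gja1 over Gja5 lies lower in cKO (0.425 to 0.867 in cKO, 0.966 to 1.23 in control), and Gja5 over Gjc1 overlaps.

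Between genes, levels were compared per length, as CPM per kilobase of GENCODE exon. In 'HEART' Dsp stood highest, at 158 ± 15.4 CPM per kilobase in cKO and 124 ± 20.44 in control (SD, n = 4 each). Cdh2 followed at 84.0 ± 4.38 in cKO and 87.5 ± 7.15 in control. Pkp2 had 65.9 ± 8.30 in cKO and 58.4 ± 3.04 in control and Jup had 63.9 ± 7.66 in cKO and 58.9 ± 2.52 in control, neighbours that did not differ beyond their spread. The connexins came next. Gjc1 had 26.9 ± 1.95 in cKO and 25.5 ± 2.40 in control, Gja1 had 21.2 ± 3.74 in cKO and 28.1 ± 4.21 in control, and Gja5 had 18.1 ± 4.05 in cKO and 15.5 ± 1.6 in control. Gja1 thus stood below Gjc1 in cKO and above it in control, but in control these neighbours lay within their spread, and their order turned round when the longest coding transcript was used as length. Of the desmosomal cadherins, Dsc2 was at 13.1 ± 1.16 in cKO and 15.3 ± 2.77 in control, where it did not differ from Gja5 beyond the spread, and Dsg2 was at 8.48 ± 1.03 in cKO and 10.1 ± 1.16 in control. These gaps too depended on the length used. With the longest coding transcript the control levels were 24.0 for Gja5, 15.3 for Dsc2 and 14.5 for Dsg2. Ctnna3 was last, at 4.08 ± 0.982 in cKO and 5.32 ± 0.728 in control.

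In 'SHF' the same genes stood in another order. The values are the authors' 1 FPKM per genotype (fragments per length and depth), so no spread can be given and no test was run, and the levels of the dissections are set side by side only as orders within each. Gja1 stood first, with 108 FPKM in cKO and 104 FPKM in control, against the fifth or sixth place it took in 'HEART'. Gjc1 had 49.8 FPKM in cKO and 47.6 FPKM in control, and Cdh2, which neural and mesodermal tissues also make, had 37.0 FPKM in cKO and 39.6 FPKM in control. Gja5 had 12 FPKM in cKO and 15.6 FPKM in control. The desmosomal genes followed within a narrow range, where cKO had 8.88 FPKM of Jup and control 10.6, and the others, cKO before control, were Dsp at 8.25 and 8.75, Pkp2 at 7.47 and 8.19, Dsg2 at 6.99 and 7.98 and Dsc2 at 3.88 and 4.22 FPKM. Ctnna3 was near 0, with 0.0744 FPKM in cKO and 0.349 FPKM in control.

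**Figure D4:**
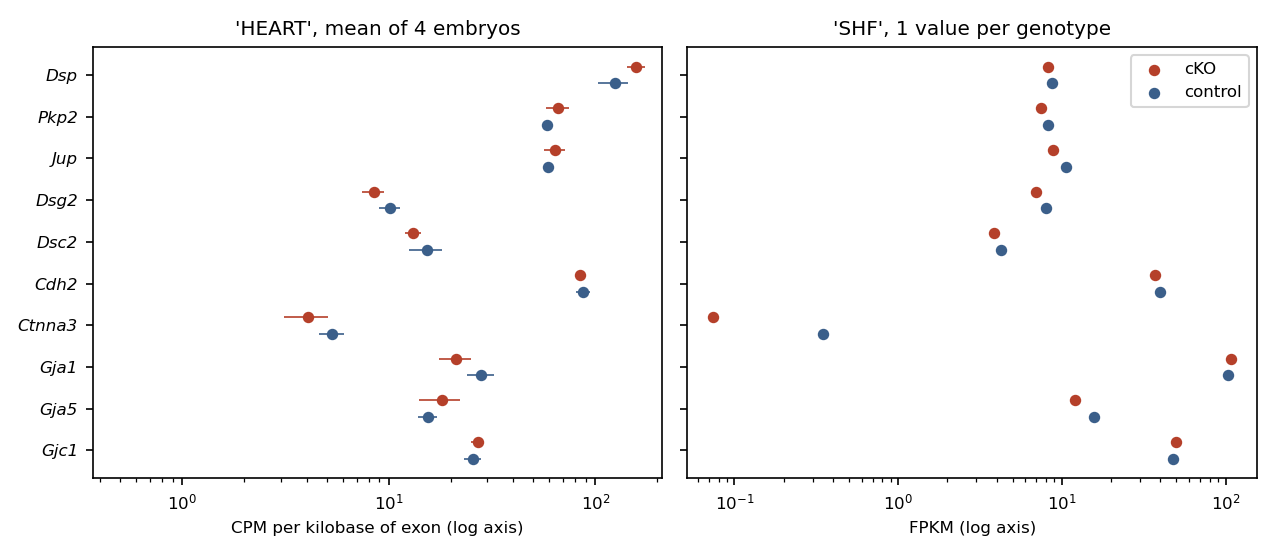
Level of each member per length on log axes, cKO in red above control in blue. On the left, 'HEART' CPM per kilobase of exon, with points for means and bars for 1 SD (n = 4 each), where Dsp is highest (158 in cKO, 124 in control). On the right, 'SHF' FPKM with 1 value per genotype and no error, where Gja1 is highest (108 in cKO, 104 in control) and Ctnna3 lowest (0.0744 in cKO, 0.349 in control).

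Differences between the genotypes in 'SHF' were small for most members. A single member, Ctnna3, was past 1.5-fold, with a log2 ratio of -2.23, where 13.5% of 16601 symbols with a value above 0 in both genotypes were past that fold (5.79% higher and 7.75% lower). With 1 FPKM added to each value the ratio of Ctnna3 was -0.33. Of the 9 members with a mean of at least 1 FPKM none was past 1.5-fold, where 1.96% of such symbols were (0.562% higher and 1.4% lower). Next to Ctnna3 the largest ratio was that of Gja5 at -0.38, then Jup at -0.26 and Dsg2 at -0.19, and Gja1 and Gjc1 were at 0.06 and 0.07. The ratio of Dsp was -0.08. The median over the 10 members was -0.13, with 8 below 0, against a median of -0.01 and 53.9% below 0 over the 16601 symbols. Cardiomyocyte markers had lower values in cKO in this dissection, with 9 of 9 ratios below 0 and 6 past 1.5-fold (median log2 ratio -1.08, summed 123 FPKM in cKO and 241 FPKM in control). Epithelial markers had 10 of 11 ratios below 0 and 0 past 1.5-fold, with a median of -0.19 and a range of -0.45 to 0.04. The part of both kinds of marker in the member ratios was not tested.

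Other junction genes were read from lists in the same 'HEART' fit. The lists were chosen with earlier results of these data known, so the shares called in them are a description. Of 39 listed names of other adherens junction and disc scaffold genes 36 were in the table (the other 3, Afdn, Nectin2 and Nectin3, are newer names of Mllt4, Pvrl2 and Pvrl3, also listed) and 34 were tested. Of these 8 rose in cKO, where 3.51% of all genes did, and none fell (1 lower at an unadjusted p under 0.05, 1 lower with DESeq2 and 0 with limma-voom). In that list 26 of 34 fold changes were above 0, with a median of 0.15 against -0.01 for all genes tested. Endothelial and endocardial markers had a median of 0.28 with 7 of 8 above 0, and epithelial markers a median of 0.55 with 4 of 7 above 0, and their part in these results was not tested. Lims2, a partner of integrin-linked kinase, rose with 13.5, 12.8, 9.25 and 7.45 CPM in cKO, against 2.72, 4.09, 2.67 and 3.80 CPM in control (log2 fold change 1.70 ± 0.22, edgeR adjusted p = 8.92e-04). Cdh13, a cadherin anchored to the membrane by a lipid, rose with 16.7, 18.9, 20.8 and 18.8 CPM in cKO, against 10.3, 12.5, 11.2 and 10.9 CPM in control (0.75 ± 0.11, adjusted p = 0.00179). In both the genotypes did not overlap.

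More abundant scaffold genes rose by less. Vinculin (Vcl), which strengthens actin attachment at junctions under load, averaged 518 ± 42.1 CPM in cKO and 417 ± 22.7 CPM in control (SD, n = 4 each; log2 fold change 0.31 ± 0.07, edgeR adjusted p = 0.0270). Afadin (listed as Mllt4), which ties nectins to actin, averaged 596 ± 28.0 CPM in cKO and 469 ± 54.2 CPM in control (0.35 ± 0.08, adjusted p = 0.0289). Kindlin-2 (Fermt2), an integrin activator, averaged 363 ± 12.69 CPM in cKO and 309 ± 11.7 CPM in control (0.23 ± 0.06, adjusted p = 0.0460). The others called, named after their values were seen, were Pvrl2, Ajuba and Ilk. The list had 2 higher genes without cKO 2, and likewise 2 when log2 Xist was added to the model, each time Lims2 and Cdh13, then 4 without cKO 1, 3 without control 1, 4 without control 2 and 13 without cKO 4. In 'SHF' the log2 ratio of none of these 30 list members with a mean of at least 1 FPKM reached 1.5-fold.

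Of 17 other desmosome and linker genes 6 were tested and 1 was called, where 2.92% of all genes were called lower. Perp, a membrane protein of desmosomes that is also a target of p53, fell to 13.9, 11.7, 18.37 and 13.7 CPM in cKO, against 37.1, 38.8, 39.7 and 37.0 CPM in control (log2 fold change -1.42 ± 0.12, edgeR adjusted p = 3.78e-05). Its genotypes did not overlap, and its difference ran against that of Dsp in the same samples. Perp was called in every alternative fit run. In 'SHF' Perp had 3.88 FPKM in cKO and 5.41 FPKM in control.

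Of 20 other connexin and pannexin genes 4 were tested and the rest did not pass the filter on low counts. Calls were 1 higher and 1 lower, where 3.51% of all genes were called higher and 2.92% lower. Panx1 (log2 fold change -0.33, edgeR adjusted p = 0.133) and Gjb5 (0.11, adjusted p = 0.942) were not called. Connexin 37 (Gja4), a connexin of arterial endothelium, rose with 29.7, 34.4, 26.2 and 38.4 CPM in cKO, against 22.0, 21.5, 20.45 and 27.4 CPM in control (log2 fold change 0.50 ± 0.13, edgeR adjusted p = 0.0458). Its call was lost without cKO 2 (adjusted p = 0.134), control 1 (0.139), control 2 (0.114) or control 3 (0.125). Endothelial and endocardial markers summed to 819 to 1103 CPM in cKO and 754 to 1053 CPM in control and none was called by edgeR or limma-voom (1 higher with DESeq2, 4 higher at an unadjusted p under 0.05), and their part in the Gja4 result was not tested. Such an unadjusted p, in either direction, was found for 2105 of all 12694 genes tested. Panx2, a channel protein related to connexins in topology, fell to 4.08, 5.24, 6.90 and 4.76 CPM in cKO, against 9.76, 12.2, 11.1 and 7.51 CPM in control (-0.97 ± 0.19, adjusted p = 0.0123), and lost its call with log2 Xist as a covariate, as did Gja4.

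Of 14 transcription factors known to act on cardiac connexin genes all were tested, 2 fell in cKO, where 2.92% of all genes did, and 12 were not called. Irx3, which in the mouse conduction system is known to act on Gja1 and Gja5, fell to 14.8, 16.5, 12.5 and 13.7 CPM in cKO, against 23.4, 19.2, 22.3 and 18.5 CPM in control (log2 fold change -0.53 ± 0.12, edgeR adjusted p = 0.0203). Tbx2, a repressor of chamber genes in the atrioventricular canal, fell to 35.8, 33.3, 34.8 and 36.0 CPM in cKO, against 57.5, 40.1, 43.3 and 64.7 CPM in control (-0.56 ± 0.13, adjusted p = 0.0329), a call lost without cKO 2 (0.108), without control 1 (0.119) and with log2 Xist as a covariate. Tbx5, a known activator of Gja5, and its partner Nkx2-5 had log2 fold changes of -0.07 and -0.11 in 'HEART' and were not called. In 'SHF' 8 of the 14 ratios were below 0, where 53.9% of all 16601 symbols were. Past 1.5-fold 3 were lower and 1 higher, named here after their values were seen, where 7.75% of symbols were lower and 5.79% higher. With a mean of at least 1 FPKM, 2 of 13 were lower and 1 higher, where 1.4% and 0.562% of such symbols were. The higher one was Tbx5, with 4.05 FPKM in cKO and 1.51 FPKM in control. The lower ones were Tbx2 (4.04 FPKM in cKO, 6.21 FPKM in control), Tbx20 (4.13 FPKM in cKO, 6.87 FPKM in control) and Shox2 (0.521 FPKM in cKO, 1.47 FPKM in control). The mean of Shox2 was under 1 FPKM.

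**Figure D5:**
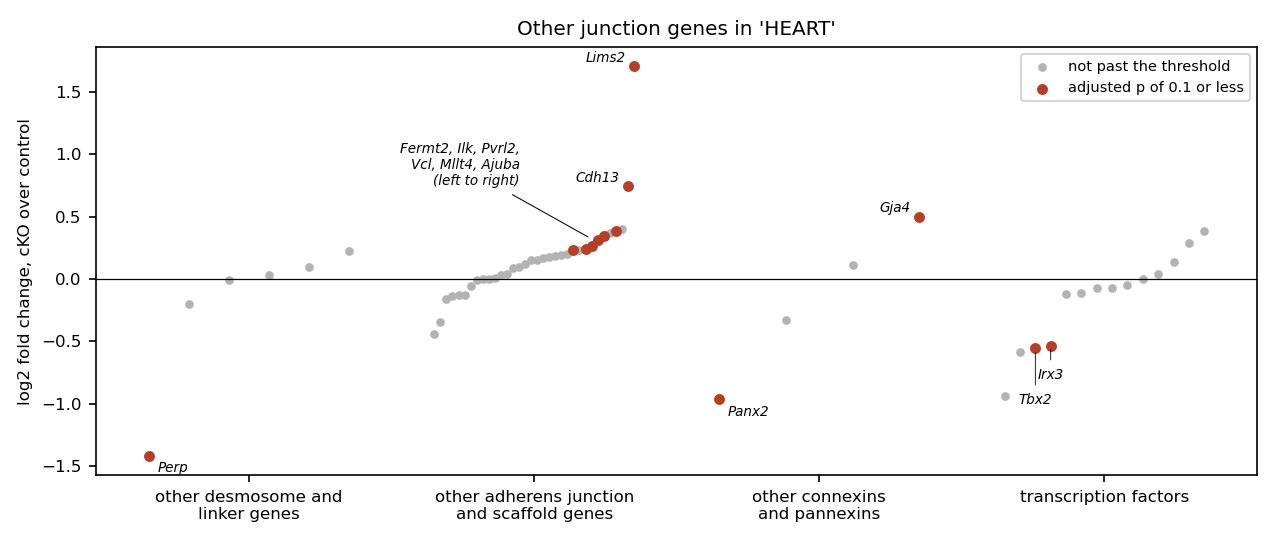
Log2 fold change in 'HEART', cKO over control, of the tested genes of 4 lists, each point a gene, ordered by value within its list, with genes past the threshold in red and named (n = 4 each). The adherens junction and scaffold list has 8 red points, all above 0, from 0.23 (Fermt2) to 1.70 (Lims2), and the lowest red point of all is Perp at -1.42.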

How the data were processed

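Titles gave each sample's group. Codes in the descriptions showed that 8 of 11 embryos contributed to both dissections. For 'HEART', raw counts per gene and sample were deposited, which the authors made with fastp 0.20.1, STAR 2.7.2b (mm10) and featureCounts 1.6.4. How strand was set in counting is not known here, and exons of an opposite-strand gene cover 5.20% of the exon bases of Dsp, 3.99% of Dsg2 and 2.90% of Gja5 in GENCODE M21. Dates replaced symbols in 27 gene rows. A further 8 columns of normalised values and the authors' own fold changes and p-values were not used. For 'SHF', the authors deposited a single FPKM for each genotype beside their own fold changes, p-values and q-values, which were not used. STAR 2.5.0b, HTSeq and DESeq2 are named in the study's methods for this dissection, but the table is laid out as Cuffdiff writes it, a tool these sources do not name.

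'HEART' counts were tested in edgeR 4.0.16 (R 4.3.3) with the default filterByExpr, TMM factors and the quasi-likelihood F test of genotype with no covariate. Benjamini-Hochberg adjustment ran over all genes tested, with a threshold of 0.1. The script was tested on simulated data. CPM are TMM-scaled, except those of Xist, which are per total count, and SE is the log2 fold change divided by the root of F. The biological coefficient of variation was 11.2%. Each library is a single embryo, so p-values measure the spread between these embryos. 'SHF' ratios carry no test, and a symbol with several loci was represented by its most abundant locus. Alternatives were DESeq2 1.42.0, limma-voom (limma 3.58.1), other scalings, filters and thresholds, leaving out each sample, blocks, log2 Xist as a covariate and leaving out erythroid genes. The members and lists were chosen with earlier results of these data known. All members were named, and of each other list the called genes, up to the 5 of smallest p. Some further list genes were named after their values were seen. Promoters are from RefSeq.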

Additional observations from a re-analysis of the deposited data

Results flagged for a closer look

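Fermt2, the integrin activator kindlin-2, had 1 cKO 'HEART' sample that stood apart from the others. The cKO samples 1 to 4 had 371, 366, 370 and 344 CPM, against 295, 306, 313 and 323 CPM in the control samples 1 to 4. The gap from the lowest cKO sample, cKO 4, to the next was 0.832 of the range of the 4 cKO samples, just past the critical value of Dixon's test. Of 46 groups of 4 samples examined this was the only such one, and chance gives about 1 in 20.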

How the results depend on the processing

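Over 19 alternatives to the 'HEART' fit, the 10 members' log2 fold changes kept direction and call in 165 of 190 cases, passed the threshold newly in 12, lost it in 10 and turned round in 3. The 3 came with log2 Xist as a covariate, where Dsc2 was 0.0302, Cdh2 0.0507 and Gjc1 -0.0492 (adjusted p of 0.971, 0.912 and 0.930). Dsp was called in 9 of the 19 and Gja1 in 7. Members called numbered 2 with DESeq2 (1 lower), 0 with RLE size factors (0 higher), 2 with no count filter (1 lower), 0 at a threshold of 0.05 (0 higher), 2 with a random block on the prefix of the embryo codes (1 lower) and 0 with the Xist covariate (0 higher), and with total counts 0 were higher and 1 lower. Leaving out 1 sample gave 0 to 3 members called, 0 to 3 higher and 0 to 2 lower. Genes called numbered 250 with the Xist covariate (132 higher, 118 lower), 289 higher at 0.05, and 500 to 1421 on leaving out 1 sample (256 to 873 higher, 244 to 548 lower; 500 without cKO 2, 509 without control 1, 510 without cKO 1, 1421 without cKO 4). With total counts 43.0% of calls were higher, against 54.6% with TMM. The cause of these shifts was not tested. Xist largely ran with genotype, so the fit with the Xist covariate cannot fully tell their effects apart.

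With the replicate number as a block 4 members were called, of which 3 lower: Dsp, Gja1 at -0.41 (adjusted p = 0.00874), Dsg2 at -0.26 (0.0556) and Ctnna3 at -0.40 (0.0992), and 917 genes in all. The labels do not say that a number marks a shared litter or day, though the numbers 3 and 4 each share an embryo code prefix between the genotypes. The deviations of same-numbered samples correlated at 0.10, 0.06, 0.23 and -0.03, and 3 of 8 samples correlated best with their own number.

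In 'SHF' 2248 symbols and 1 member were past 1.5-fold. These were 645 symbols with a pseudocount of 0.1 FPKM, 146 and 0 members with 1 FPKM, 216 and 0 members with a mean of at least 1 FPKM, 54 and 0 members with at least 5 FPKM, 3767 and 2 members past a lower fold, and 1167 symbols past 2-fold. Depth limits Ctnna3 most, with 156 to 278 counts per 'HEART' library and an unknown number in 'SHF'.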
